A study of Homo sapiens with 27 samples.

Results

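The change of translational efficiency (TE) after ionizing radiation was measured in IMR90 cells, fibroblasts from human fetal lung that the labels give as wild type. TE is the ratio of a gene's ribosome footprints (Ribo-seq) to its mRNA (RNA-seq), and its change is the footprint change less the mRNA change on a log2 scale. The comparison uses 11 of the 27 libraries of the series: 2 RNA-seq and 3 Ribo-seq libraries of cycling cells, and 3 of each type of cells made senescent by radiation. The members are these 11 libraries, chosen by their titles in the labels. Of the 19323 protein-coding genes in the count files, 11338 had enough counts in both library types and were tested.

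The irradiated cells received 15 Gy and were harvested after 10 days, whereas the cycling cells were untreated and harvested while still sub-confluent. Both states were grown in high-glucose DMEM with fetal bovine serum, and no other allele or agent is named for either. Lysates were made in a Triton buffer with cycloheximide, and RNA-seq and Ribo-seq were both prepared from lysate. Nothing in the labels says that replicates came from separate cultures, so p-values measure only the spread between these libraries, which may be technical. Fibroblasts in culture were the labelled cell type, and all 12 fibroblast markers examined (COL1A1, PDGFRA, THY1, DCN and others) had counts. Their summed level was 12960 to 18510 counts per 1e+06 counts (CPM) in RNA-seq, against 74.75 to 134.8 CPM for 10 epithelial, 17.78 to 36.83 CPM for 8 endothelial and at most 0.35 CPM for 8 blood cell markers.

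Ribosomes translate mRNAs for cytosolic, nuclear and most mitochondrial proteins free in the cytosol. mRNAs for secreted proteins, membrane proteins and the residents of the endoplasmic reticulum (ER), Golgi and lysosome are instead translated at the ER, where the growing chain enters the Sec61 channel. Cells also adjust initiation on chosen mRNAs. Those with a terminal oligopyrimidine (TOP) start, mainly mRNAs of ribosomal proteins and elongation factors, follow mTOR activity, and those with upstream reading frames, such as ATF4, are favoured when eIF2 is phosphorylated. Senescent fibroblasts are known for a large secretory output and for lasting cell cycle arrest.

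The TOP element lies at the first bases of the mRNA, a cytosine followed by a run of pyrimidines. It is shown for the mRNAs on which the TOP results turn, as the first 20 transcribed bases of the RefSeq start (GRCh38.p14), 5′ to 3′, with the run in capitals. The starts lie on chr6:73521013-73521032 (EEF1A1, minus strand), chr19:3985444-3985463 (EEF2, minus), chr13:45341164-45341183 (TPT1, minus), chr9:19380217-19380236 (RPS6, minus), chr17:74203678-74203697 (RPL38, plus) and chr9:133348218-133348237 (RPL7A, plus).
EEF1A1: CTTTTTCgcaacgggtttgc
EEF2: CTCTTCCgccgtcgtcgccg
TPT1: CTTTTCCgcccgctcccccc
RPS6: CTCTTTTCCgtggcgcctcg
RPL38: CTTTTTCgtccttttccccg
RPL7A: CTTTCTCTCTCCTCCCgccg

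Gene counts, in units of 1e+06, totalled 20.6 to 30.04 in the RNA-seq libraries, 9.87 to 14.4 in cycling Ribo-seq and 2.65 to 5.56 in irradiated Ribo-seq, so the irradiated footprints limit the precision. Cycling RNA-seq replicate 2 stood apart from the other RNA-seq libraries. Reads mapping to several places were 33.4% of its reads against 13.2% in cycling replicate 1 and 17.97% to 21.2% in the irradiated libraries, and reads outside genes were 10.9% of its uniquely mapped reads against 3.46% to 4.79%. The counts of called genes, over all genes and in several lists and families, are given with and without it. Values of single genes come mainly from fits that hold it.

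Changes of mRNA and of footprints were widespread, whereas changes of their ratio were fewer and mostly downward. At an adjusted p under 0.05, mRNA differed for 6088 genes (53.7% of those tested) and footprints for 6350 genes (56%). TE differed for 762 genes (6.72%). It was lower in irradiated cells for 715 genes (6.31%) and higher for 47 (0.415%), and 204 of the lower and 14 of the higher differed at least 2-fold. The median TE change over all genes was -0.07, and from the 5th to the 95th percentile genes ran from -0.84 to 0.40. Without cycling RNA-seq replicate 2, TE was lower for 618 genes and higher for 48.

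**Figure D1:**
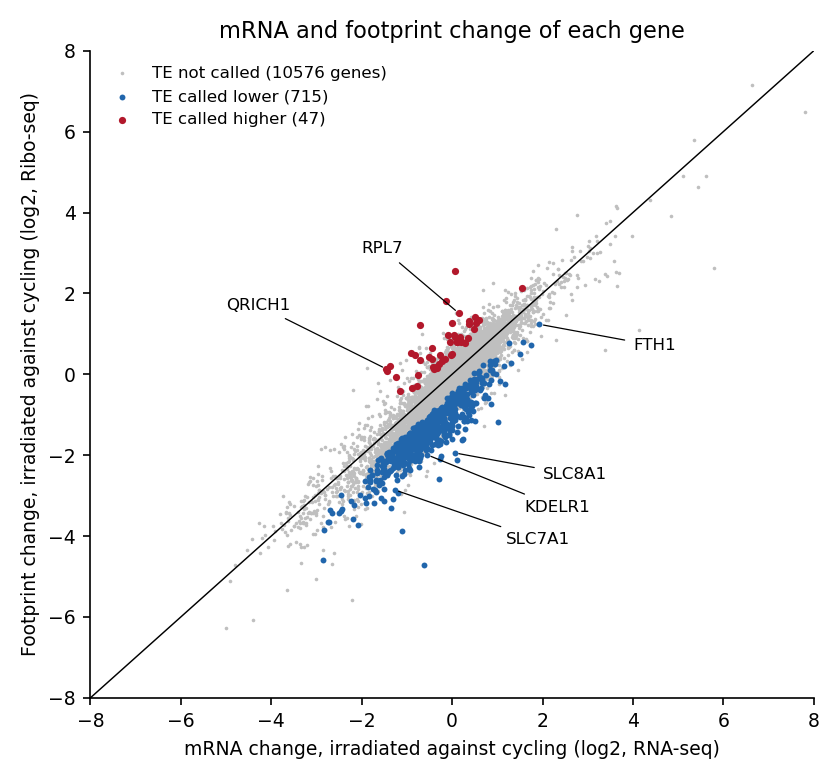
Each point is 1 of 11338 genes, with its mRNA change on the x axis and its footprint change on the y axis (both log2, irradiated against cycling), and the line marks equal change. Most genes lie along the line, the 715 genes with lower TE (blue) form a band below it and the 47 with higher TE (red) lie above it.

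Genes with lower TE mostly lost more footprints than mRNA. Of the 715, 462 fell in both mRNA and footprints, and 175 fell in footprints while their mRNA did not pass the test. Another 28 rose in mRNA and fell in footprints, 42 rose in mRNA without a footprint change that passed the test, and 8 rose in both. Of the 47 genes with higher TE, 18 rose in footprints alone, 13 fell in mRNA alone, 9 rose in both, 4 fell in mRNA and rose in footprints, and 3 fell in both.

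How many genes were called depends on the fit. None of the 762 was called in the opposite direction in any other fit run. A fit of all 27 libraries also held quiescent cells, cells given 50 µM etoposide and cycling cells given thapsigargin for 3 h. Thapsigargin Ribo-seq had 65.2% and 66.9% of reads mapping to several places, against 23.0% to 31.9% in cycling and irradiated Ribo-seq. Thapsigargin RNA-seq had 1.40% and 1.35% unmapped reads, against 30.3% to 32.1% in RNA-seq of those states. The bearing of these libraries on the calls was not tested. In that fit only 11 genes were called, 4 lower and 7 higher, and all 11 were among the 762. Those lower were LMTK2, FUT10, SHISA5 and TOR1AIP1, and those higher included QRICH1, RPL7, RPL7A, CDC42 and HSPA8, named here after their values were seen. When 1 of the 11 libraries was left out, calls ranged from 335 (without irradiated RNA-seq replicate 2) to 926 (without cycling Ribo-seq replicate 1), and 202 genes were called in all 11 such fits, 189 lower (1.67%) and 13 higher. The share of lower genes also varied between fits. Lower genes were 93.8% of those called, 88.7% with relative log expression size factors, 87.9% with TMM within each library type, 82.4% with no filter on low counts, 36.4% with all 27 libraries, 67.4% with genes under a mean count of 50 left out, 67.8% without irradiated RNA-seq replicate 2 and 73.8% without cycling Ribo-seq replicate 2, and the fits of the last 3 put the median of all genes at 0.09, 0.07 and 0.08. Medians of gene groups are also given relative to that of all genes.

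Among genes called in every leave-one-out fit with a mean count of at least 50 in both library types, the largest falls belonged mainly to membrane proteins and residents of the ER. SLC8A1, the sodium-calcium exchanger of the plasma membrane, had the largest. Its mRNA stood at 103 and 92.3 CPM in cycling and 94.3, 99.7 and 112 CPM in irradiated cells, and its footprints at 53.2, 52.2 and 48.2 CPM in cycling and 15.0, 11.9 and 12.1 CPM in irradiated cells. The mRNA ranges overlapped, and every irradiated footprint value lay below every cycling one. The TE of SLC8A1 fell by 2.00 ± 0.17 on the log2 scale (SE, edgeR adjusted p = 8.68e-07).

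SLC7A1, the main carrier of arginine and lysine into the cell, fell in mRNA and further in footprints. Its mRNA was 79.0 and 72.4 CPM in cycling and 33.6, 28.1 and 32.4 CPM in irradiated cells. Its footprints were 141, 105 and 132 CPM in cycling and 15.7, 20.8 and 16.8 CPM in irradiated cells, with no overlap in either library type. TE fell by 1.59 ± 0.19 (adjusted p = 5.58e-05). KDELR1, the receptor that returns escaped ER proteins from the Golgi, had footprints of 344, 372 and 449 CPM in cycling and 93.5, 90.8 and 108 CPM in irradiated cells, on mRNA of 134 and 154 CPM against 105, 98.4 and 91.0 CPM. Both library types separated the states, and TE fell by 1.44 ± 0.16 (adjusted p = 2.47e-05).

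The other genes with the largest falls were KCNN2, a calcium-activated potassium channel (-1.83), SLC29A1, a nucleoside transporter (-1.73), LMTK2, a membrane-anchored kinase (-1.64), and CNPY2, an ER protein (-1.55). They also included RNF130, a membrane-spanning ubiquitin ligase (-1.49), ZDHHC21, a membrane-spanning palmitoyltransferase (-1.47), PRKCSH, a subunit of the ER glucosidase that trims glycoproteins (-1.44), and SLC1A4, a carrier of neutral amino acids (-1.42). Their adjusted p-values lay between 0.000102 and 0.00473. ST7L was also in this group at -1.53 ± 0.23, but its change was -0.09 (adjusted p = 0.885) when both strands were counted, and it is uncertain. Of these 12 genes, LMTK2 alone was also called in the fit of all 27 libraries.

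**Figure D2:**
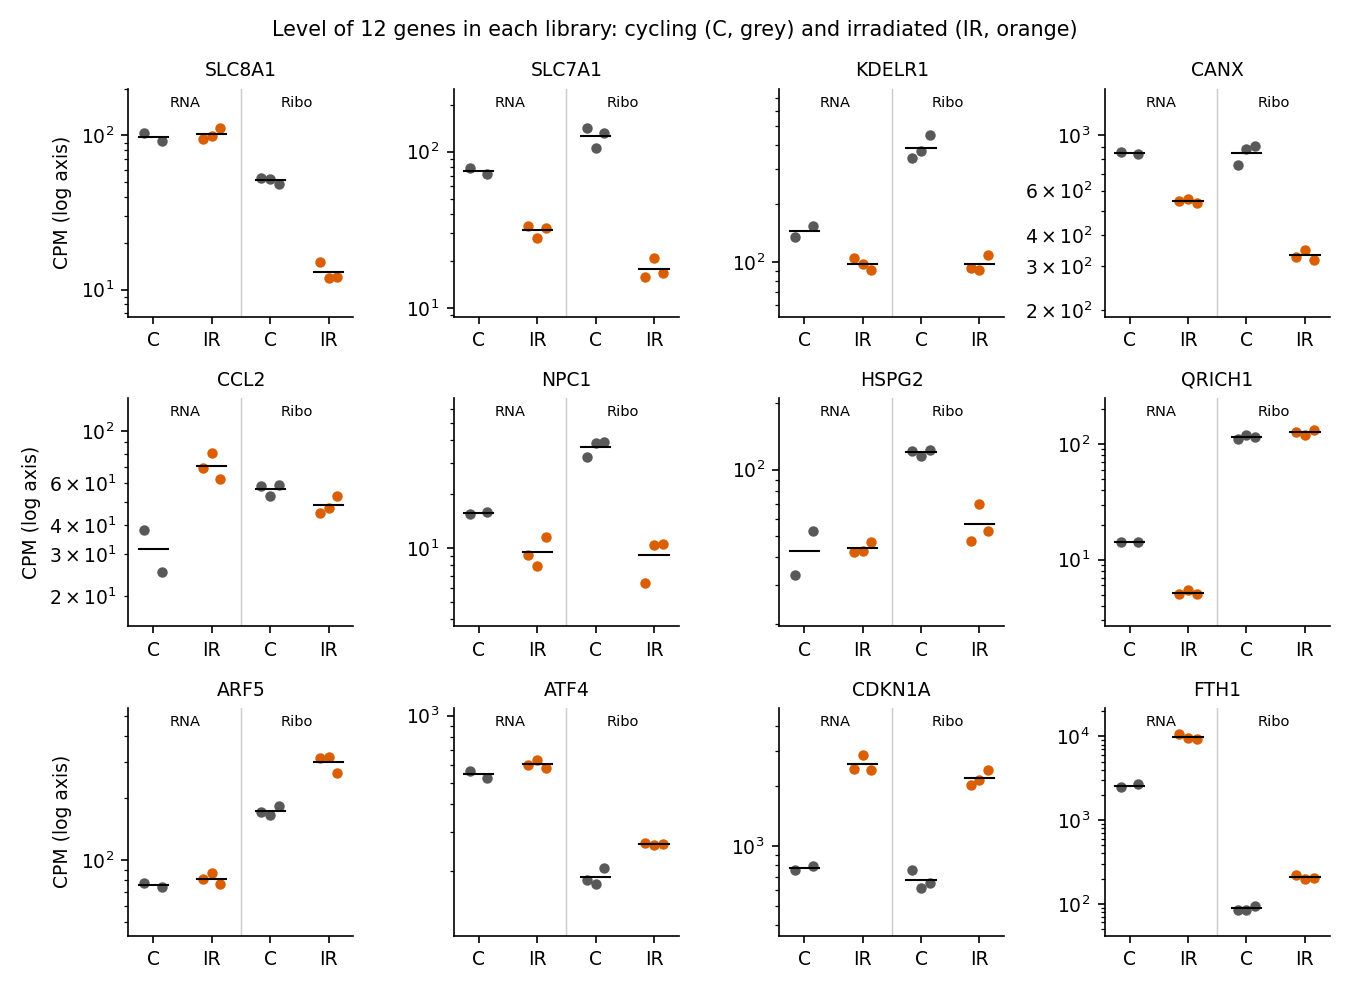
Each panel shows the level of 1 gene in every library (CPM, log axis), with RNA-seq on the left and Ribo-seq on the right, cycling (C) in grey, irradiated (IR) in orange and the mean as a bar. In SLC8A1 the mRNA is level and the footprints drop, in CCL2 the mRNA is higher and the footprints are not, and in CDKN1A both rise together.

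Lower TE was more frequent than over all genes in several lists, among them 5 lists most of whose members are made at the ER. Against a background of 6.31% of all genes with lower TE, 11 of 34 matrix glycoproteins and proteoglycans tested were lower (32.4%), as were 11 of 38 genes of the senescence-associated secretory phenotype (28.9%), 8 of 28 ER chaperones and genes of the unfolded protein response (28.6%), 8 of 44 lysosomal proteins (18.2%) and 7 of 22 genes of cholesterol synthesis and uptake (31.8%). None of these lists had a gene with higher TE. Their median TE changes were -0.53, -0.42, -0.49, -0.42 and -0.31, which relative to all genes is -0.46, -0.35, -0.42, -0.35 and -0.24. Under every alternative run, the relative medians kept their sign, the closest to 0 being -0.27, -0.27, -0.35, -0.25 and -0.14. Without cycling RNA-seq replicate 2, lower genes numbered 18, 8, 6, 8 and 5 in the same order. Without irradiated RNA-seq replicate 2, where 2.00% of all genes were lower, the secretory, ER, lysosomal and cholesterol lists held 6, 1, 2 and 2 lower genes (15.8%, 3.57%, 4.55% and 9.09%), so that 1 ER gene of 28 and 2 lysosomal genes of 44 are near the background of that fit. The matrix list held 3 (8.82%) without cycling Ribo-seq replicate 2, where 2.50% of all genes were lower. No gene of these 5 lists was called in the fit of all 27 libraries. Other lists above 6.31% included targets of ATF4 (17.6%), selenoproteins (15.8%), cytosolic ribosomal proteins (13.2%) and p53 targets (10.7%). They also included polyamine and iron genes (10.5%), and collagens, non-ribosomal TOP mRNAs and mRNAs with upstream reading frames (each 10%). In mTOR and cap-binding genes 9.09% were lower, and in immediate early genes 7.41%. The remaining lists lay below 6.31%.

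**Figure D3:**
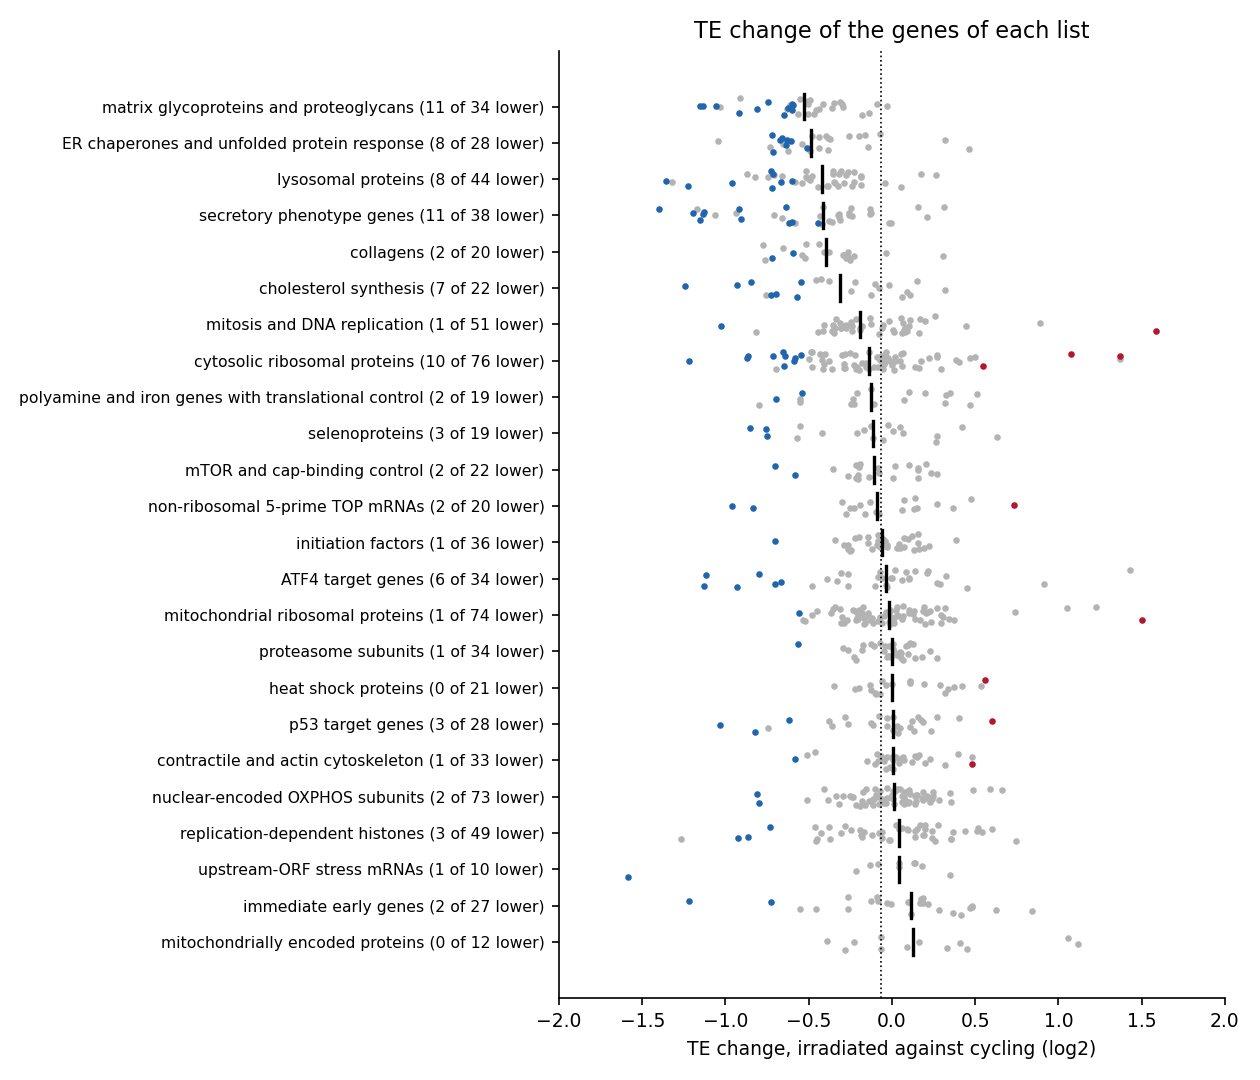
Each point is a gene placed by its TE change (log2, irradiated against cycling), in rows by list, coloured blue if called lower, red if called higher and grey otherwise, with list medians as bars and the median of all genes (-0.07) as a dotted line. The matrix, ER, lysosomal and secretory lists lie left of the dotted line and most lists of cytosolic, nuclear and mitochondrial proteins lie around it.

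Among ER residents the falls covered folding, glycoprotein quality control and translocation. CANX, the membrane-bound lectin chaperone calnexin, had mRNA of 857 and 844 CPM in cycling and 545, 554 and 536 CPM in irradiated cells, and footprints of 763, 884 and 905 CPM against 327, 349 and 318 CPM. The states did not overlap in either library type, and TE fell by 0.72 ± 0.14 (adjusted p = 0.00243). TE also fell for P4HB, the main protein disulfide isomerase (-0.72), HSPA5, the luminal chaperone BiP (-0.67), DNAJC3, its cochaperone (-0.66), ERO1A, an oxidase of disulfide bond formation (-0.64), ATF6, a membrane-bound sensor of unfolded proteins (-0.63), SEC61A1, the pore of the translocation channel (-0.61), and PDIA4 (-0.51). All 8 also fell in mRNA, by 0.56 (DNAJC3) to 1.45 (PDIA4) on the log2 scale. CANX was the only one of the 8 called in every leave-one-out fit.

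Among secreted signals, CCL2, a chemokine that draws monocytes, moved in opposite ways in mRNA and TE. Its mRNA was 38.1 and 25.3 CPM in cycling and 70.0, 80.9 and 62.5 CPM in irradiated cells, a rise of 1.16 on the log2 scale (adjusted p = 1.27e-06). Its footprints were 58.7, 52.9 and 59.3 CPM in cycling and 44.8, 47.3 and 53 CPM in irradiated cells, a difference of -0.24 that did not pass the test (adjusted p = 0.167). The TE of CCL2 fell by 1.40 ± 0.20 (adjusted p = 0.000384).

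TE also fell for INHBA, the subunit of activin A (-1.19), STC1 (-1.15), TGFB1 (-1.13), IGFBP6, a binding protein of insulin-like growth factors (-1.13), MMP1, the interstitial collagenase (-0.92), LIF (-0.91), MMP14 (-0.63), PLAU, the urokinase (-0.62), TNFRSF11B (-0.60) and TIMP3 (-0.45). CCL2, INHBA, TGFB1, IGFBP6 and MMP1 were called in every leave-one-out fit. IL6 had a TE change of -0.58 ± 0.41 (adjusted p = 0.534) and CXCL8 of -1.06 ± 1.69 (adjusted p = 0.847). CXCL8 was uneven within the cycling state, at 3.11 and 15.9 CPM in RNA-seq and 2.32, 23.5 and 3.11 CPM in Ribo-seq.

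All 34 matrix genes tested had a TE change below 0, against 6858 of all 11338 genes. HSPG2, the basement membrane proteoglycan perlecan, had the lowest. Its mRNA was 33.3 and 52.4 CPM in cycling and 42.4, 42.9 and 46.8 CPM in irradiated cells, which overlap, and its footprints were 122, 115 and 123 CPM against 47.5, 69.7 and 52.4 CPM, which do not. TE fell by 1.15 ± 0.22 (adjusted p = 0.00448). BGN (-1.14), VCAN (-1.06), EFEMP2 (-0.92), TGFBI (-0.81), NID1 (-0.75), LAMB1 (-0.65), TNC (-0.62), THBS1, LTBP2 (each -0.60) and LAMC1 (-0.59) also fell, and HSPG2 and TGFBI held in every leave-one-out fit. The 2 cycling RNA-seq libraries differed in this list: the median of its genes was 0.185 below the cycling mean in replicate 1 and as far above it in replicate 2. Among 20 collagens tested, TE fell for COL5A1 (-0.72) and COL6A3 (-0.60), and the median was -0.40. Neither was called in every leave-one-out fit: 5 collagens were lower without cycling RNA-seq replicate 2 and none without cycling RNA-seq replicate 1, irradiated RNA-seq replicate 2 or cycling Ribo-seq replicate 2. The fibroblast markers, of which several are matrix genes, summed to 43740 to 47140 CPM in cycling and 26830 to 30290 CPM in irradiated Ribo-seq. Their RNA-seq sums were 13450 and 18510 CPM in cycling and 12960 to 13280 CPM in irradiated cells. In bulk libraries, fewer cells of a type and less RNA per cell cannot be told apart.

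Lysosomal genes with lower TE were both membrane proteins and soluble enzymes. NPC1, the cholesterol exporter of the lysosomal membrane, had footprints of 32.2, 38.5 and 39.0 CPM in cycling and 6.43, 10.4 and 10.6 CPM in irradiated cells, on mRNA of 15.5 and 15.9 CPM against 9.20, 7.91 and 11.6 CPM. The states were apart in both, and TE fell by 1.36 ± 0.26 (adjusted p = 0.00238). TE also fell for MAN2B1, a mannosidase (-1.22), HEXA, a hexosaminidase subunit (-0.96), GLA (-0.73), ARSB (-0.72), TPP1, a peptidase (-0.71), LAMP1 (-0.66) and NEU1 (-0.60). In MAN2B1 the mRNA rose by 0.34 and the footprints fell by 0.88 on the log2 scale. Of the 8 lysosomal genes called lower, only NPC1 and MAN2B1 were called in every leave-one-out fit.

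Of the sterol genes, those whose TE fell included TM7SF2 (-1.24), SREBF2, the membrane-bound transcription factor of sterol synthesis (-0.84), SC5D (-0.72), MSMO1 (-0.57) and DHCR7 (-0.55). All 7 genes of the list that were called lower also fell in mRNA. SREBF2 was called in every leave-one-out fit.

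After these values were seen, 4 gene families were counted by the start of their symbols. Solute carriers (SLC genes), nearly all multi-span membrane proteins made at the ER, were counted apart from SLC25 genes, the carriers of the inner mitochondrial membrane, whose precursors are made in the cytosol. Of 160 SLC genes tested, 64 had lower TE (40%) and none higher. A negative TE change was found in 155 of the 160, against 6858 of all 11338 genes. The SLC median was -0.70, or -0.63 relative to all genes. Of 38 SLC25 genes, none was called, from SLC25A35 at -0.70 to SLC25A45 at 0.43, and the median was 0.03. TMEM genes, named only for predicted membrane spans, had 30 of 149 lower (20.1%) and 1 higher, with a median of -0.46. ZNF genes, mostly nuclear zinc finger proteins, had 2 of 422 lower (0.474%) and 3 higher, with a median of 0.03. SLC genes called lower numbered 53 without cycling RNA-seq replicate 2 and 23 (14.4%) without irradiated RNA-seq replicate 2, and none was called in the fit of all 27 libraries. TMEM genes called lower numbered 24 without cycling RNA-seq replicate 2 and 7 (4.70%) without irradiated RNA-seq replicate 2. They numbered 14 (9.4%) without cycling RNA-seq replicate 1 and 10 (6.85%) without cycling Ribo-seq replicate 2. Over all genes, 5.45%, 2.00%, 3.76% and 2.50% were lower in these fits, in the same order. Since the families were picked with these values known, the counts are a description.

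**Figure D4:**
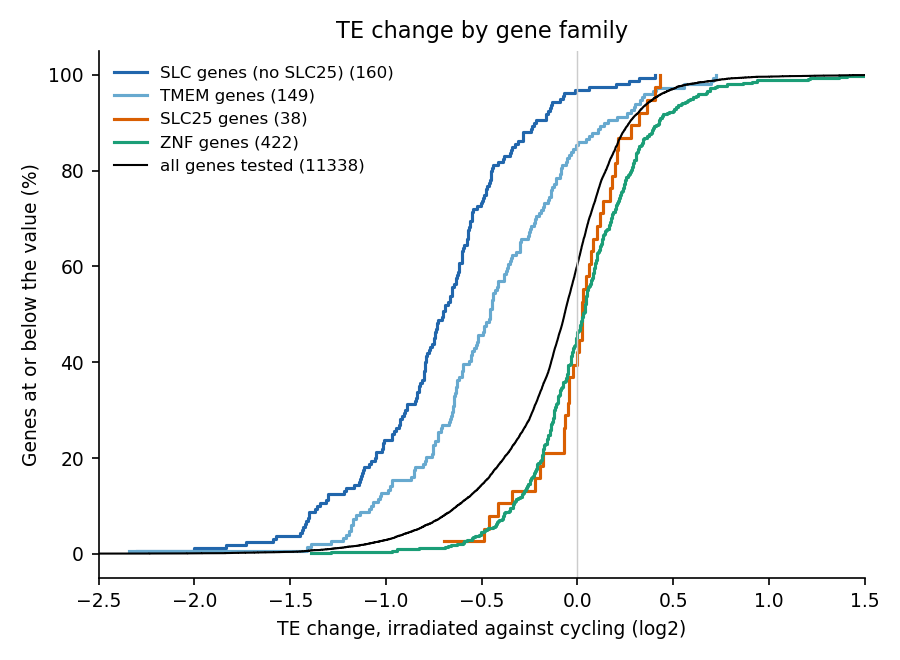
Cumulative share of genes (y axis, %) at or below a TE change (x axis, log2, irradiated against cycling) for 4 gene families and all 11338 genes. The SLC curve lies farthest left (median -0.70), the TMEM curve between (median -0.46), and the SLC25 and ZNF curves (medians 0.03) slightly right of that of all genes (median -0.07).

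The separation was alike in each irradiated library. The irradiated values share the cycling mean of their library type, for RNA-seq that of 2 libraries, so their likeness does not test that mean. Relative to the cycling mean and to all genes, the median SLC gene stood at -0.72, -0.62 and -0.74 in irradiated RNA-seq and at -1.38, -1.38 and -1.36 in irradiated Ribo-seq. SLC25 genes stood at 0.15, 0.27 and 0.22 in RNA-seq and 0.19, 0.18 and 0.35 in Ribo-seq. No irradiated Ribo-seq value of the SLC genes came near their RNA-seq values, whereas those of the SLC25 genes overlapped. The ER list stood at -0.94, -0.85 and -0.98 in RNA-seq and at -1.41, -1.28 and -1.39 in Ribo-seq, and the lysosomal list at -0.27, -0.16 and -0.36 and at -0.76, -0.64 and -0.81.

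**Figure D5:**
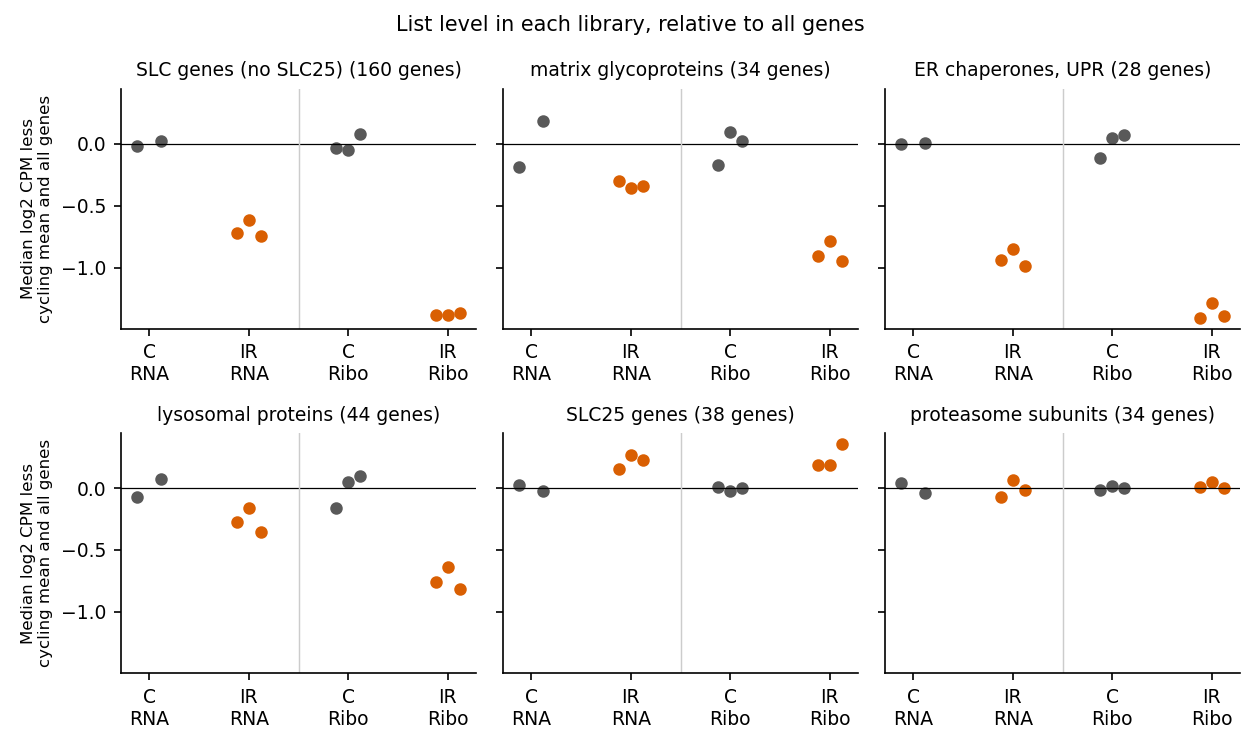
Each point is 1 library and gives the median log2 CPM of a list less its cycling mean and less the same value for all genes, with cycling (C) in grey and irradiated (IR) in orange. In the SLC, matrix, ER and lysosomal panels the irradiated Ribo-seq points lie below the irradiated RNA-seq points, and in the SLC25 and proteasome panels they lie at a like height.

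Among SLC genes called in every leave-one-out fit were several amino acid carriers. SLC38A2, a carrier of small neutral amino acids, had footprints of 2900, 2613 and 2208 CPM in cycling and 740.1, 815 and 684 CPM in irradiated cells, and mRNA of 1369 and 1217 CPM against 829, 821 and 811 CPM. Neither overlapped, and TE fell by 1.13 ± 0.16 (adjusted p = 0.000242). TE also fell for SLC7A6 (-1.40), SLC7A5, the large neutral amino acid carrier (-1.12), and SLC38A1 (-0.84), and for SLC3A2, the partner chain of SLC7A5 (-0.67), whose call did not hold in every such fit. Other carriers in this group were SLC2A3, a glucose transporter (-1.14), SLC20A1, a phosphate transporter (-1.01), SLC12A4, a potassium-chloride cotransporter (-1.22), and SLC35C1, the Golgi carrier of GDP-fucose (-1.42).

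Some of these carriers are also on the lists of the integrated stress response. Of 34 targets of ATF4, the transcription factor of that response, 6 had lower TE (17.6%) and none higher: SLC38A2, SLC7A5, VLDLR, STC2, SLC7A11 and SLC3A2, all membrane or secreted proteins. The list median was -0.03. SLC38A2, SLC7A5 and STC2 were called in every leave-one-out fit, and without irradiated RNA-seq replicate 2 they were the 3 called. Of 10 mRNAs with upstream reading frames tested, SLC7A1 was lower and none was higher, with a median of 0.04.

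ATF4 itself had mRNA of 564 and 525 CPM in cycling and 598, 634 and 580 CPM in irradiated cells, and footprints of 182, 175 and 206 CPM against 268, 261 and 265 CPM. Its footprints rose by 0.50 on the log2 scale (adjusted p = 7.96e-05). Its TE change was 0.35 ± 0.13 and did not pass the test (adjusted p = 0.135). It passed, as higher, with genes under a mean count of 50 left out (0.50, adjusted p = 0.0356), with DESeq2 (0.41, adjusted p = 0.0274) and without irradiated RNA-seq replicate 2 (0.53, adjusted p = 0.0431). DDIT3 (0.05 ± 0.25) and PPP1R15A, the regulatory subunit of an eIF2 phosphatase (0.18 ± 0.22), did not pass it either.

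TOP mRNAs showed no common change of TE. Of 76 ribosomal protein genes tested, 10 were lower (13.2%) and 3 higher, with a median of -0.14, or -0.07 relative to all genes. The relative median changed sign between alternatives, from -0.16 to 0.02, and lower genes numbered 5 without cycling RNA-seq replicate 2 and 1 without irradiated RNA-seq replicate 2. RPL38 (-0.71 ± 0.14) was lower in every leave-one-out fit, and RPS6 (-0.58 ± 0.14) was lower in the fit of all 11 libraries. EEF1A1 (-0.28 ± 0.18, adjusted p = 0.481), EEF2 (0.13 ± 0.16, adjusted p = 0.789) and TPT1 (-0.19 ± 0.17, adjusted p = 0.662), whose starts are printed with the sequences, did not pass the test. Of 20 TOP mRNAs for other proteins, PABPC1 (-0.96) and PABPC4 (-0.83), which bind the poly(A) tail, were lower and HNRNPA1 (0.74) was higher. EEF1A1 and HNRNPA1 have many near-identical copies in the genome, and their footprint to mRNA ratios in cycling cells were at the 0.07th and 0.11th percentile of genes, so their values are uncertain. The ratios of RPL7A and TPT1 were at the 0.08th and 1.23rd percentile, and their values are uncertain as well.

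A start with C followed by at least 4 pyrimidines (C or T, read on the transcribed strand at the RefSeq start alone) was present in 4.07% of the 35116 RefSeq starts. It was present in 45 of 60 ribosomal protein genes tested that had a start in the table, and in 721 of 9428 genes tested (7.65%). Outside the ribosomal proteins, 58 of 676 genes with such a start had lower TE (8.58%) and 6 higher, with a median of -0.05. Of 8707 genes without it, 510 were lower (5.86%) and 32 higher, with a median of -0.06. Without irradiated RNA-seq replicate 2 the lower genes numbered 26 (3.85%) and 151 (1.73%).

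Several other lists of cytosolic, nuclear and mitochondrial proteins had medians near that of all genes, and shares of lower genes under the background of 6.31%. Lower genes were 1 of 34 proteasome subunits (2.94%), 1 of 36 initiation factors (2.78%) and 1 of 33 contractile genes (3.03%). Of nuclear-encoded subunits of oxidative phosphorylation 2 of 73 were lower (2.74%), and of mitochondrial ribosomal proteins 1 of 74 (1.35%). Medians of these lists lay between -0.06 and 0.01. Counts this small do not set the lists apart from the background. Selenoproteins had 3 of 19 lower (15.8%), polyamine and iron genes 2 of 19 (10.5%) and mTOR and cap-binding genes 2 of 22 (9.09%). The medians of those lists were -0.11, -0.12 and -0.11. None of the 12 mRNAs translated inside mitochondria that were tested was called, with a median of 0.13. The initiation factor called was EIF4E, which binds the cap (-0.70 ± 0.16, adjusted p = 0.00899), and its call ended in some leave-one-out fits. COX4I1, a subunit of cytochrome oxidase, fell by 0.80 ± 0.15 and was called in every leave-one-out fit.

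Genes of the arrest itself changed in mRNA and footprints alike. CDKN1A, the p53-induced inhibitor p21, had mRNA of 758 and 788 CPM in cycling and 2436, 2852 and 2408 CPM in irradiated cells, and footprints of 754, 611 and 651 CPM against 2013, 2141 and 2408 CPM. The states did not overlap, with rises of 1.73 and 1.70 on the log2 scale, and the TE change was -0.03 ± 0.16 (adjusted p = 0.967). CDKN2A (0.15 ± 0.36) and LMNB1, the lamin lost in senescence (-0.25 ± 0.18), likewise did not pass the test for TE.

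Replication-dependent histones had median changes of -3.09 in mRNA and -3.10 in footprints. TE was lower for 3 of 49 (6.12%), near the 6.31% of all genes. The 51 genes of mitosis and DNA replication had medians of -2.61 and -2.74, and TE was lower for MCM7 (-1.03 ± 0.16), a subunit of the replicative helicase, and higher for 1 gene. MKI67 had a TE change of -0.82 ± 0.28 (adjusted p = 0.101). Of 28 p53 targets, 3 were lower (10.7%): TNFRSF10B (-0.82), FAS (-0.62), both death receptors of the plasma membrane, and TIGAR (-1.03). GADD45A (0.60), a nuclear stress protein, was higher. Without irradiated RNA-seq replicate 2, 1 histone gene (2.04%) and 1 p53 target (3.57%) were lower, against 2.00% of all genes. Of the immediate early genes, CCN1 (-1.22) and CCN2 (-0.73), both secreted matricellular proteins, were lower (7.41%). The other 25 of 27 were not called.

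Higher TE was rare and partly uncertain. ARF5, a small GTPase of Golgi traffic made in the cytosol, had mRNA of 77.2 and 74.1 CPM in cycling and 81.1, 86.7 and 77.0 CPM in irradiated cells, and footprints of 171, 167 and 183 CPM against 315, 319 and 265 CPM. The mRNA ranges overlapped and the footprints did not, and TE rose by 0.68 ± 0.14 (adjusted p = 0.00355). SH3BGRL (0.62) and ZNF226 (0.91) also rose, and so did HSPA8, the constitutive cytosolic HSP70, by 0.56 ± 0.14.

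QRICH1, a transcriptional regulator active under ER stress, rose by 1.59 ± 0.15 (adjusted p = 1.47e-06). Its mRNA was 14.2 and 14.1 CPM in cycling and 5.02, 5.49 and 5.02 CPM in irradiated cells, while its footprints were 111, 120.3 and 115 CPM against 128, 119 and 132 CPM. Only the mRNA values separated the states. The footprint to mRNA ratio of QRICH1 in cycling cells lay at the 99.66th percentile of genes. TUBB3, a tubulin (1.17), lay at the 99.32nd percentile and MRPS5 (1.50) at the 99.96th. RPL7 (1.37), RPL7A (1.07) and RPL7L1 (0.94) lay at the 0.02nd, 0.08th and 1.48th percentile, and RPL7 had 1495 to 1771 CPM in RNA-seq but only 4.74 to 16.1 CPM in Ribo-seq. Genes with near-identical copies or overlapping neighbours can lose reads in 1 library type and not the other, so the values of these genes are uncertain. The same holds for FTH1, the ferritin heavy chain, whose TE fell by 0.70 ± 0.15 at the 0.23rd percentile while its mRNA rose by 1.93.

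Precision set by depth bears on which genes could be called. With genes put into 4 equal groups by mean Ribo-seq count, from low to high, the median SE of the TE change went from 0.34 to 0.15, and the share called lower was 3%, 6.49%, 7.66% and 8.08%. When the cycling Ribo-seq libraries were thinned to the mean total of the irradiated ones, 674 genes were lower and 46 higher.

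The TE change after radiation was set beside that in etoposide-treated and in contact-inhibited quiescent cells, each against the same cycling libraries, in the fit of all 27 libraries. SLC genes had medians relative to all genes of -0.63 after radiation, -0.10 after etoposide and -0.42 in quiescence. For the ER list they were -0.42, -0.02 and -0.23, for the matrix list -0.46, 0.09 and -0.05, and for the lysosomal list -0.34, -0.07 and -0.23. The controls are shared, so these values are not independent of each other.

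Of 11727 genes, none differed in TE between irradiated and etoposide-treated cells by edgeR (0%), with 771 at an unadjusted p under 0.05. When the libraries of those 2 states were fitted alone, 601 differed, 585 of them lower after radiation. Between irradiated and quiescent cells RPL7 differed (0.00853% of genes), with 297 genes at an unadjusted p under 0.05, and in the fit of those 2 states alone RPL7 did not pass (1.46, adjusted p = 0.0776).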

How the data were processed

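The deposited values are raw read counts per gene with separate columns for both strands, forward and reverse, in the layout of STAR; per the submitters' processing notes, bcl2fastq, STAR 2.7.10b, hg38 and DESeq2 1.36.0 were used. The annotation and trimming are not given in the sources used here. Per the labels' protocols, RNA-seq used a stranded TruSeq kit and Ribo-seq a NEBNext small RNA kit on gel-selected footprints after RNase I, whose time the labels give in 2 ways. RNA-seq values are the reverse-strand column (4) and Ribo-seq values the forward-strand column (3). Reads mapping to several places or to no gene are on lines that name no gene, and were dropped. In the 11 libraries they held 13.2% to 33.4% (several places) and 16.6% to 34.7% (unmapped) of reads.

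The files of the 11 libraries follow 2 gene lists, of 62703 IDs (RNA-seq) and 60664 (Ribo-seq). In the fit of all 27 libraries, the thapsigargin Ribo-seq files follow the list of 62703 IDs. Both lists hold 60534 IDs, of which 60461 could be given a symbol, 40563 matched the RefSeq gene table (GRCh38.p14) and 19323 were protein coding. Where the lists draw a gene differently, its ratio can be shifted, in both states alike.

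The test was that of edgeR 4.0.16 under R 4.3.3 (filterByExpr within each library type, TMM over the 11 libraries, robust quasi-likelihood F test, two-sided). The TE change is the interaction of library type and state. Adjusted p-values follow Benjamini and Hochberg over all genes tested, and genes were called at an adjusted p under 0.05. SEs are the size of the log2 change over the root of F. CPM values are TMM-scaled. TMM scaling puts the average change near 0, so a change of all ratios alike could not be seen. On simulated data with the means and depths of these 11338 genes, 82 of 100 ratios changed 2-fold and 93 of 100 changed 3-fold were called, with 13 false calls. In that simulation the states differed only in the changed genes, and only in irradiated Ribo-seq. In the data mRNA differed for 53.7% of genes and footprints for 56%, so the simulated figures may not hold for this comparison. The intervals and SEs cover the spread between libraries, and no molecular identifiers are named.

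Genes named are the largest rises and falls (up to 12 each) called in every leave-one-out fit with a mean count of at least 50 in both library types, the 2 highest and 2 lowest called genes of each list, and a fixed set including CDKN1A, ATF4 and EEF1A1. Other members of a list were named after their values were seen, and some genes that the rule names are not reported here. The comparison, gene lists and families were chosen with earlier results of these data known. In no pair of replicates were counts within sampling noise. RNA-seq and Ribo-seq libraries of 1 number and state did not deviate together throughout (correlations of 0.14 and 0.14 in cycling, 0.04, 0.02 and -0.09 in irradiated cells). A planned comparison by protein length was not run.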

Additional observations from a re-analysis of the deposited data

Results flagged for a closer look

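The TE change of RPL7, a protein of the large ribosomal subunit, was 1.50 in irradiated and 0.07 in quiescent cells, each against cycling cells in the fit of all 27 libraries. The difference was 1.44 ± 0.22 on the log2 scale (edgeR, adjusted p = 0.00936 over 11727 genes), and it passed the test of the difference between the states. In the fit of the irradiated and quiescent libraries alone it was 1.46 and did not pass (adjusted p = 0.0776). Etoposide-treated cells had a TE change of RPL7 of 2.22 against cycling cells (adjusted p = 6.85e-06 in the fit of all 27 libraries). Irradiated less etoposide-treated cells came to -0.71 ± 0.22 in that fit (adjusted p = 0.532) and -0.88 in the fit of those states alone (adjusted p = 0.00169). RPL7 has near-identical copies in the genome and few footprints counted, so its value is uncertain. Groups of 2 or 3 libraries were too small to look for outlying samples.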

How the results depend on the processing

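No gene called by the fit of all 11 libraries had the opposite direction where an alternative called it. The 762 calls (47 higher, 715 lower) became 448 (146 and 302) with a mean count of at least 50, 11 (7 and 4) with all 27 libraries, 573 (101 and 472) with no filter and 710 (106 and 604) with DESeq2. TMM within each library type gave 472 lower genes. Leaving out 1 library gave 335 to 926 calls, 15 to 108 higher and 227 to 836 lower. Besides irradiated RNA-seq replicate 2 (335), calls moved by over 1.5 times without cycling RNA-seq replicate 1 (442), cycling Ribo-seq replicate 2 (381) or irradiated Ribo-seq replicate 1 (391). The mRNA calls, 6088 in all, were 3947 with all 27 libraries, and 4844 to 6275 with 1 library left out. Irradiated against etoposide-treated cells went from 0 calls to 601 when only those states were fitted, and irradiated against quiescent cells gave 1 call either way, but not the same gene. The cause of these shifts was not tested.

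With a replicate block that takes RNA-seq and Ribo-seq libraries of the same state and number as 1 unit, which the labels do not state, 806 genes were called (82 higher), and with a replicate block by number alone 694. The first block raised the higher genes by over 1.5 times. The pairing was not used in the fit of all 11 libraries. Same-numbered libraries did not deviate together throughout, but in groups of 2 or 3 libraries this cannot settle whether they were paired.

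Of the named genes that were called, direction held in every alternative, with 1278 values on the same side of the threshold and 355 not. Of the genes not called, ATF4 passed as higher in the 3 fits given with it, MT-CO3 with the block by state and number (1.12), MKI67 without irradiated RNA-seq replicate 2 (-0.86) and FTL without cycling Ribo-seq replicate 1 (-0.62). Among them, CDKN1A (-0.03) changed sign with RLE (0.037), TMM within each type (0.046), no filter (0.067), a mean count of at least 50 (0.13), DESeq2 (0.037) and all 27 libraries (0.11). Leaving out 1 library moved CDKN1A from -0.10 to 0.20, DDIT3 from -0.21 to 0.29, IL6 from -0.83 to 0.17, CXCL8 from -2.63 to 1.01 and TPT1 from -0.36 to 0.025. Irradiated Ribo-seq, at gene totals of 2.65 to 5.56 in units of 1e+06, limits what could be called. The comparison by protein length was not run.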
